A study of Rattus norvegicus with 6 samples.

Results

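The 10 genes described here encode the proteins that supply, build, recycle, use and break down glutathione, and were chosen by symbol: Slc7a11, Gclc, Gclm, Gss, Gsr, Gpx1, Gpx3, Gpx4, Ggt1 and Dpep1. All 10 were among the 32663 gene entries measured in kidney cortex from 6 Sprague-Dawley (Crl:CD(SD)) males that were 5 weeks old when bought. The 3 controls were given corn oil, and the 3 treated rats were given anthraquinone, a tricyclic quinone, at 1000 mg/kg/day, both for 4 weeks. Each rat had its own Agilent array with 1 dye (Cy3). The comparison, named in the series title, is of gene expression in the cortex after anthraquinone. Values are log2 spot intensities after subtraction of the 75th percentile of the array, so that 0 is the brightness of the probe at that percentile.

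Glutathione is a tripeptide of glutamate, cysteine and glycine and the main small thiol of animal cells. Cystine enters through the exchanger that Slc7a11 encodes, glutamate-cysteine ligase (Gclc and Gclm) and glutathione synthetase (Gss) join the amino acids, peroxidases oxidise glutathione to detoxify peroxides, and glutathione reductase (Gsr) regenerates it with NADPH. The proximal tubule of the kidney has a very active breakdown route on its brush border, where gamma-glutamyltransferase (Ggt1) and dipeptidase (Dpep1) take filtered glutathione apart so that its amino acids can be reabsorbed. Gclc, Gclm, Gsr and Slc7a11 are textbook targets of Nrf2, the transcription factor that is released by electrophiles and oxidants.

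The promoters of Gclm and Slc7a11 are shown because one holds the only antioxidant response element core found in the set and the other belongs to the gene with the largest difference. Promoters from RefSeq (rat assembly GRCr8, 300 bases each) were found for 9 of the 10 genes, 11 promoters in all. TGACNNNGC, the core of the element that Nrf2 binds, was searched on both strands. It occurred in 1 of the 9 genes, Gclm, and in 12.1% of the 33469 promoters of the table. The match, TGACTAAGC on the minus strand, begins at -172 relative to the gene's start and is in capitals below as read on the plus strand. The same core followed by A also occurred only in Gclm, against 3.0% of all promoters. TGACTCA, the AP-1 motif, occurred in 0 of the 9 genes and 4.63% of all promoters, and TGATGNAA, a core bound by ATF4 dimers that was added after the values were seen, in 0 and 3.98%. These counts describe this window only. The 250 bases upstream of each start are given 5′ to 3′ on the gene's strand.
Gclm, chr2:213031885-213032134, plus strand: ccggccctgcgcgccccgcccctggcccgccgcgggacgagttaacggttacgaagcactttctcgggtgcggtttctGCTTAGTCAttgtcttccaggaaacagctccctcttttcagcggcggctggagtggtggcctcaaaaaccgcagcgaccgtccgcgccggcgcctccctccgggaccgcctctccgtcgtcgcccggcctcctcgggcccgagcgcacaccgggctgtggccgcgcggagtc
Slc7a11, chr2:136668265-136668514, minus strand: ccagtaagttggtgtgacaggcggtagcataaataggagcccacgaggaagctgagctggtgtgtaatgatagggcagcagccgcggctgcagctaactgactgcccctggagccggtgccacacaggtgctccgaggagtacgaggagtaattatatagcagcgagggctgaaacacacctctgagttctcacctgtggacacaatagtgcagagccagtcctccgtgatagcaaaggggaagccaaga

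None of the 10 genes passed the test between the groups (limma, Benjamini-Hochberg adjusted p under 0.05 over all entries). Over all entries 9 of 32663, or 0.0276%, passed (0.0153% higher and 0.0122% lower with anthraquinone). At an unadjusted limma p under 0.05 the 10 genes gave 2, Slc7a11 and Gpx4, and all entries 17.1%. For Slc7a11, Gpx4 and Gsr every treated rat lay above every control, which is 3 of 10 against 15.0% of all entries. None of the 10 genes was separated downward, against 10.2% of all entries, and 25.2% of entries were separated in either direction. The median log2 difference of the 10 genes was 0.10, beside 0.01 over all entries, with 6 of 10 values positive against 51.6% of all entries. It was -0.03 after quantile normalization and -0.02 with the normexp background correction.

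**Figure D1:**
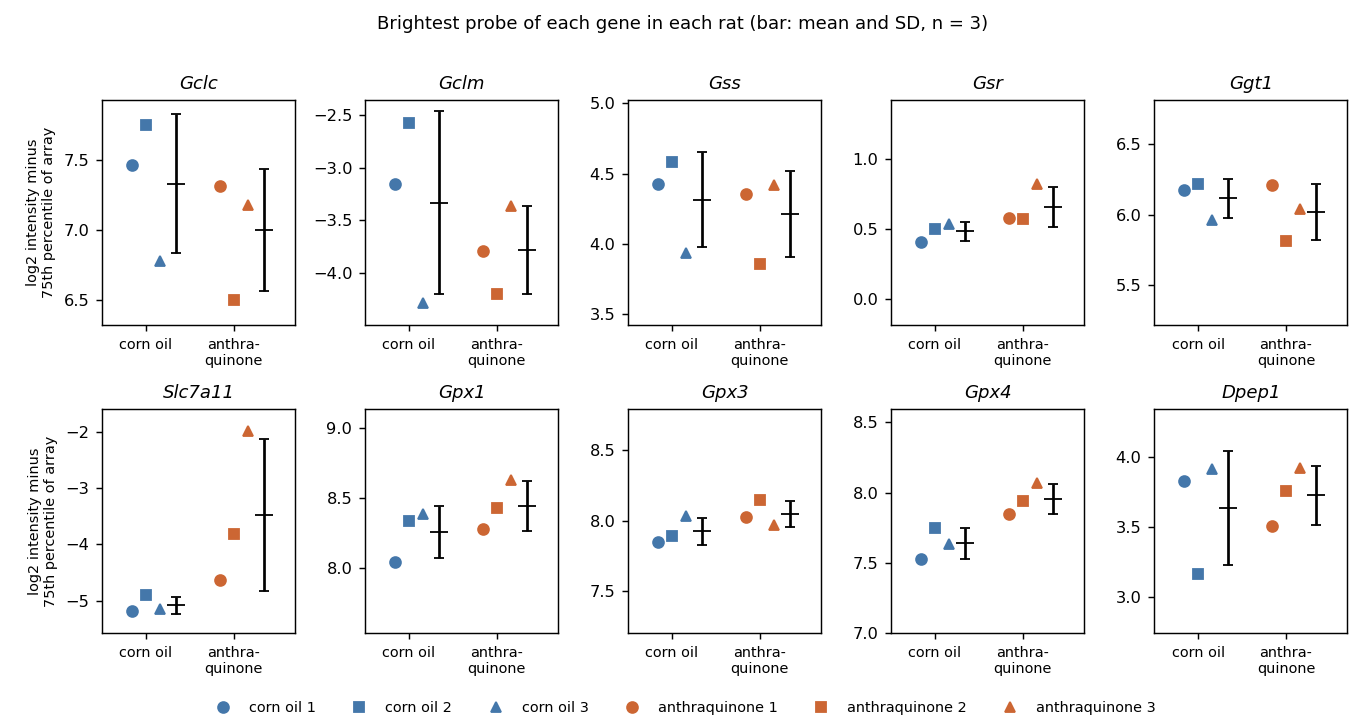
Log2 intensity minus the array's 75th percentile (vertical axis) for the brightest probe of each gene in each rat, with corn oil in blue, anthraquinone in orange and a bar for the mean and SD of 3 rats. Slc7a11 reached -1.98 in anthraquinone rat 3, while Gclc, Gclm and Gss were low in corn oil rat 3 and anthraquinone rat 2.

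Slc7a11, the cystine carrier, had the largest difference of the 10 genes. Corn oil rats 1, 2 and 3 measured -5.18, -4.91 and -5.15, and anthraquinone rats 1, 2 and 3 measured -4.64, -3.81 and -1.98. Every treated rat lay above every control, but the treated rats differed widely, from 1.36-fold above the corn oil mean in rat 1 through 2.41-fold in rat 2 to 8.58-fold in rat 3. The log2 difference was 1.60 ± 0.64 (SE, n = 3 per group, limma adjusted p = 0.282), with a 95% interval of 0.05 to 3.16. Without anthraquinone rat 3 it was 0.86, and with the normexp correction it was 0.75. Of the 2 other probes of Slc7a11, 1 exceeded background on the array of anthraquinone rat 3 alone, at -4.71, and the other did so on no array. These probes were not tested. On the tested probes rat 3 was also the highest of the 6 for Gsr, Gpx1 and Gpx4. For Dpep1 it was the highest by a narrow margin (3.919 against 3.914 in corn oil rat 3).

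The enzymes of synthesis varied widely between rats of the same group, and none passed the test between groups. Gclc, the catalytic subunit of glutamate-cysteine ligase, measured 7.46, 7.75 and 6.78 with corn oil and 7.31, 6.50 and 7.18 with anthraquinone. Anthraquinone rat 2 and corn oil rat 3 were the lowest, and the groups overlapped. The difference between groups was -0.33 ± 0.31 (SE, n = 3 per group, limma adjusted p = 0.623), with an interval from -1.09 to 0.43. A second probe followed the same order of rats, from 3.56 in corn oil rat 2 to 1.93 in anthraquinone rat 2.

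Gclm, the modifier subunit of the ligase, measured -3.15, -2.57 and -4.28 with corn oil and -3.79, -4.20 and -3.36 with anthraquinone. Again corn oil rat 3 and anthraquinone rat 2 were the lowest, and the groups overlapped. The difference was -0.45 ± 0.45 (SE, n = 3 per group, limma adjusted p = 0.648). Its 95% interval ends at a ratio of 1.57, so an increase larger than that lies outside the interval of this fit. The difference was -0.07 ± 0.41 without corn oil rat 2 and -0.92 ± 0.30 without corn oil rat 3. With the normexp correction it was -0.23 ± 0.24. Gclm had 1 probe, which was dim though above background on all 6 arrays. The upper end of the interval was not computed for those other fits and moves with the arrays used. On the same arrays the Nrf2 targets Hmox1 (heme oxygenase 1) and Nqo1 (a quinone reductase) passed the test, with intervals that begin at 3.42-fold and 2.87-fold (limma adjusted p = 0.031 for both). Both were named because earlier results of these data had put them past the threshold. The Nrf2 reference targets as a list ran from -0.09 (Osgin1) to 2.25 (Srxn1).

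Gss, which adds glycine in the last step, measured 4.42, 4.58 and 3.94 with corn oil and 4.35, 3.86 and 4.42 with anthraquinone. Its lowest values fell in the same rats as those of the ligase subunits. The difference was -0.10 ± 0.22 (SE, n = 3 per group, limma adjusted p = 0.843).

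**Figure D2:**
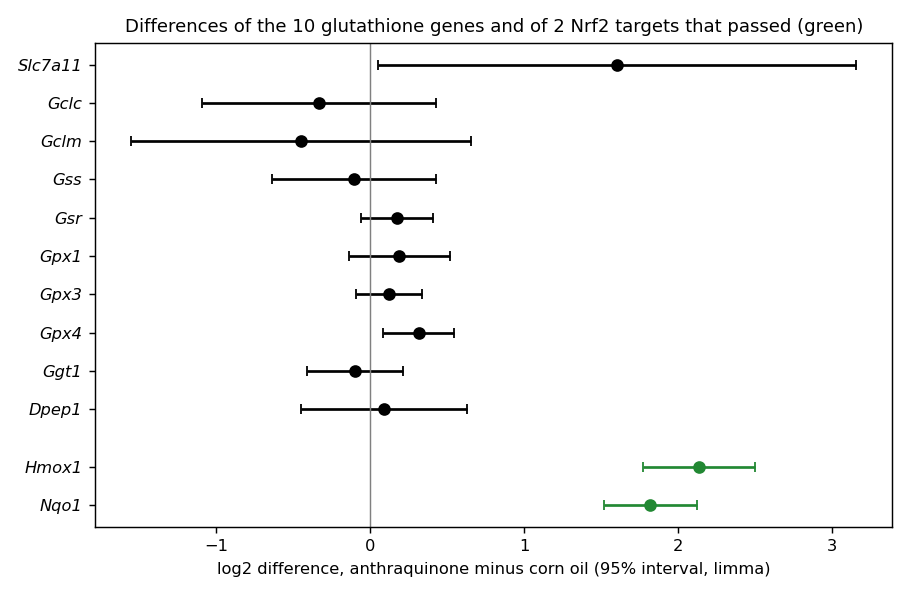
Log2 difference between anthraquinone and corn oil (horizontal axis) with its 95% interval from limma for the 10 genes (black) and for Hmox1 and Nqo1 (green), 3 rats per group. The intervals of Slc7a11 and Gpx4 lie above 0 before adjustment for the number of entries, and those of the ligase subunits and Gss span it.

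The spread within groups set these enzymes apart from most of the array as a description. The within-group SD of Gclc was 0.47, of Gclm 0.68 and of Gss 0.32, at the 93.8th, 97.8th and 85.7th percentiles of all entries, whose median was 0.14. From the lowest to the highest rat, Gclc spanned 2.37-fold and Gclm 3.28-fold. Slc7a11 was at the 99.2nd percentile (SD 0.15 in corn oil and 1.36 in anthraquinone). Dpep1, an enzyme of breakdown, had an SD of 0.32 at the 85.9th percentile, so a wide spread was not particular to synthesis. Gpx3, Gpx4 and Gsr, with SDs of 0.09, 0.11 and 0.11, were below the median.

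Levels of the synthesis genes ran together over the 6 rats. Pearson's r was 0.96 between Gclc and Gss (exact permutation p = 0.00417, adjusted p = 0.0469 over the 45 pairs of the 10 genes) and 0.92 between Gclm and Gss (exact permutation p = 0.00417, adjusted p = 0.0469). Between Gclc and Gclm it was 0.91 (exact permutation p = 0.0167, adjusted p = 0.0938), and between Gclc and Ggt1 0.95 (exact permutation p = 0.00417, adjusted p = 0.0469). Spearman's rho for these pairs was 0.94, 0.94, 0.89 and 0.94 (exact permutation p = 0.0167, 0.0167, 0.0333 and 0.0167), with an adjusted p of 0.15 for each. Without the 2 rats farthest from the median of the first gene, r was 0.92, 0.88, 0.85 and 0.90. After subtraction of the group means it was 0.99, 0.93, 0.90 and 0.94. Corn oil rat 1 lay alone on its slide, and without it r was 0.96, 0.91, 0.90 and 0.94 over the remaining 5 rats of the other slide. Between Gss and Ggt1 r was 0.89 (exact permutation p = 0.0139, adjusted p = 0.0893) but 0.27 without anthraquinone rat 2 and corn oil rat 3, so it rests on those rats. Outside the synthesis genes and Ggt1, r between Slc7a11 and Gpx4 was 0.88 (exact permutation p = 0.00139, adjusted p = 0.0469). For that pair rho was 1 (exact permutation p = 0.00278, adjusted p = 0.125), and r after subtraction of the group means was 0.77.

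Markers of the S3 segment, the last part of the proximal tubule, were set beside these genes, and no correlation with a synthesis gene or Ggt1 passed after adjustment. These correlations were not among the planned tests, and the other marker lists were not correlated with the genes. All 8 listed S3 markers were measured, 7 of them with negative differences. This was not particular to S3, since 7 of 8 principal cell and 6 of 7 podocyte markers were negative. So were 5 of 5 of the thick ascending limb and 3 of 3 of the distal convoluted tubule, but 3 of 13 proximal tubule markers of all segments. The summed level of the S3 markers (normalized linear intensity) was 101 to 185 in corn oil and 73.3 to 124 in anthraquinone. Slc7a13, the brightest of them, weighs most in that sum. All 8 were well above background on all 6 arrays. Only 1 of the 8, Slc1a1, had its lowest values in corn oil rat 3 and anthraquinone rat 2. Aqp7 was the marker with a positive difference. It was separated upward and 1 other marker downward, against 15.0% and 10.2% of all entries. The mean log2 level of the 8 markers, set to 0 over the 6 arrays, was 0.40, 0.23 and -0.09 with corn oil and -0.08, -0.47 and 0.00154 with anthraquinone. Its r with Gclc was 0.86 (exact permutation p = 0.0333, adjusted p = 0.119 over 10 genes), with Gclm 0.79 (exact permutation p = 0.0542, adjusted p = 0.119), with Gss 0.80 (exact permutation p = 0.0389, adjusted p = 0.119) and with Ggt1 0.81 (exact permutation p = 0.0597, adjusted p = 0.119). Spearman's rho was 0.89, 0.89, 0.94 and 0.71 (exact permutation p = 0.0333, 0.0333, 0.0167 and 0.136, adjusted p = 0.0833, 0.0833, 0.0833 and 0.272). Without anthraquinone rat 2 and corn oil rat 1, the farthest on the marker scale, r was 0.85, 0.95, 0.75 and 0.53. Less S3 tissue in a sample and less RNA of these genes per cell cannot be told apart in bulk tissue. Whether the relation is particular to S3 among the marker lists was not tested.

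With the S3 marker level as a further term of the fit, chosen after the data were seen, the differences of Gclc, Gclm and Gss were 0.26 ± 0.24, 0.32 ± 0.42 and 0.32 ± 0.16 (SE, n = 3 per group, limma adjusted p = 0.656, 0.763 and 0.452). Their sign was therefore positive with the term and negative without it, and neither fit put any of them past the threshold.

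**Figure D3:**
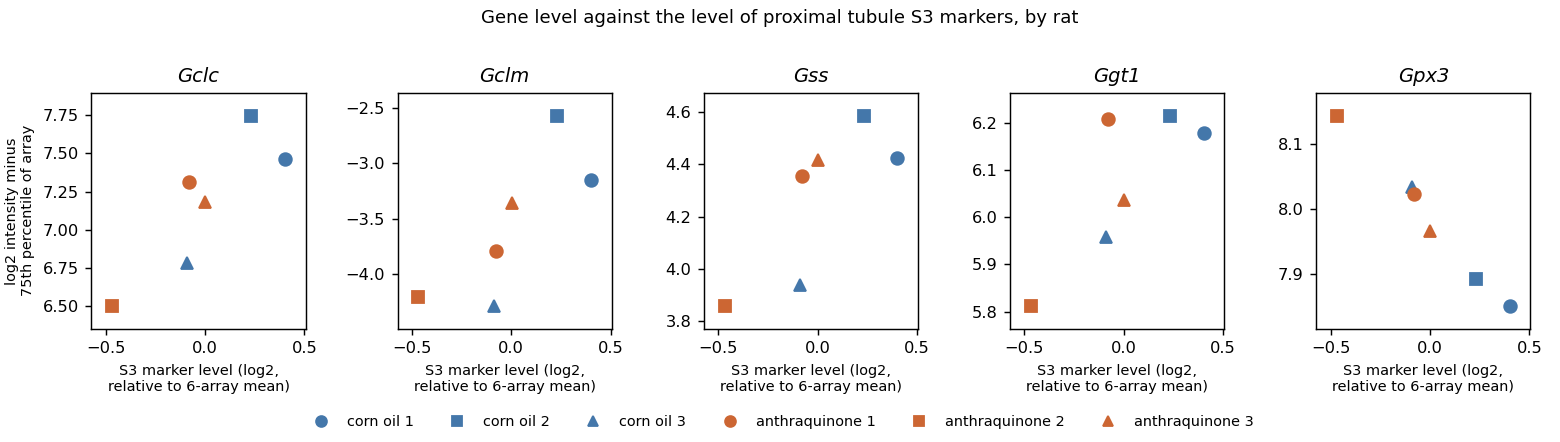
Log2 level of Gclc, Gclm, Gss, Ggt1 and Gpx3 (vertical axes, relative to the array's 75th percentile) against the mean log2 level of 8 S3 markers (horizontal axes, relative to the mean of the 6 arrays), 1 point per rat. The first 4 genes are higher where the marker level is higher (r 0.79 to 0.86) and Gpx3 is lower there (r = -0.99). No other marker list was correlated with these genes.

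Gsr, the NADPH-dependent reductase of oxidised glutathione, measured 0.41, 0.50 and 0.54 with corn oil and 0.57, 0.57 and 0.82 with anthraquinone. The treated rats lay above the controls, by a small margin in rats 1 and 2. The difference was 0.17 ± 0.10 (SE, n = 3 per group, limma adjusted p = 0.402), and it was 0.09 without anthraquinone rat 3.

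Among the peroxidases, Gpx4, which reduces lipid hydroperoxides in membranes, was higher in each treated rat. It measured 7.53, 7.75 and 7.64 with corn oil and 7.85, 7.94 and 8.07 with anthraquinone, with no overlap. The ratio was 1.24 and the log2 difference 0.31 ± 0.10 (SE, n = 3 per group, limma adjusted p = 0.218), with a 95% interval of 0.08 to 0.55. The other 2 probes gave 0.33 and 0.30, also without overlap, and they cover 2 RefSeq transcripts between them. After quantile normalization the difference was 0.12 and with the normexp correction 0.12. The groups were also apart in the brightness of the arrays: the 75th percentile used for scaling was 903 to 1191 with corn oil and 844 to 880 with anthraquinone, and the share of probes above background 68.7 to 70.7% and 64.2 to 66.1%. Over the 6 rats, Pearson's r with that 75th percentile was -0.845 for Gpx4 and -0.840 for Gpx1. With the share of probes above background r was -0.70 for Gpx4 and -0.27 for Gpx1. Brightness differed between the groups, so r cannot separate it from treatment. The part of array brightness in the Gpx4 and Gpx1 values was not tested beyond r and these alternative scalings.

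Gpx1, the cytosolic peroxidase, measured 8.04, 8.34 and 8.39 with corn oil and 8.28, 8.43 and 8.63 with anthraquinone, and the groups overlapped. The difference was 0.19 ± 0.14 (SE, n = 3 per group, limma adjusted p = 0.512), 0.12 on its second probe and 0.015 after quantile normalization. It was 0.082 without corn oil rat 1 and 0.096 without anthraquinone rat 3. With the array row as a block it was 0.40, a value that sets the treated rats against corn oil rat 1 alone. Red cell markers, which include both globin chains, were higher in all treated rats, with a summed level of 496 to 639 in corn oil and 765 to 1018 in anthraquinone. All 4 measured of the 6 listed were separated upward, against 15.0% of all entries. Red cells are known to hold Gpx1, and the part of red cell RNA in these peroxidase values was not tested.

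Gpx3, the secreted plasma peroxidase made by the proximal tubule, measured 7.85, 7.89 and 8.03 with corn oil and 8.02, 8.14 and 7.97 with anthraquinone. The difference was 0.12 ± 0.09 (SE, n = 3 per group, limma adjusted p = 0.524), and -0.07 after quantile normalization or with the normexp correction. Its level ran opposite to the S3 markers, with r = -0.99 (exact permutation p = 0.00139, the smallest that 6 rats can give, adjusted p = 0.0139 over 10 genes) and rho = -1 (exact permutation p = 0.00278, adjusted p = 0.0278). Without anthraquinone rat 2 and corn oil rat 1 r was -0.98, and within groups it was -0.99. Without the array alone on its slide it was -0.99. This correlation was not among the planned tests, and its adjustment covers the 10 genes and no other marker list. The span of Gpx3 over all rats was 1.23-fold.

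Of the brush border enzymes of breakdown, Ggt1 measured 6.18, 6.22 and 5.96 with corn oil and 6.21, 5.81 and 6.04 with anthraquinone. The difference was -0.10 ± 0.13 (SE, n = 3 per group, limma adjusted p = 0.734). Dpep1 measured 3.83, 3.17 and 3.91 with corn oil and 3.50, 3.76 and 3.92 with anthraquinone. Its low value was that of corn oil rat 2, the rat with the highest Gclc, and the difference was 0.09 ± 0.22 (SE, n = 3 per group, limma adjusted p = 0.867). The interval of Ggt1 runs from a ratio of 0.752 to 1.16 and that of Dpep1 from 0.733 to 1.55.

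The genes around this core gave the following values, from 134 other genes in 11 lists, of which 123 were measured. Over all of them 2 passed, both higher (Hmox1 and Nqo1), beside 0.0276% of all entries in either direction. Of the 123, 85 values were positive and 38 negative (51.6% of all entries were positive), 33 were separated upward and 8 downward (15.0% and 10.2% of all entries), and the median difference was 0.07. The lists were chosen with earlier results of these data known, and some genes are on 2 lists.

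**Figure D4:**
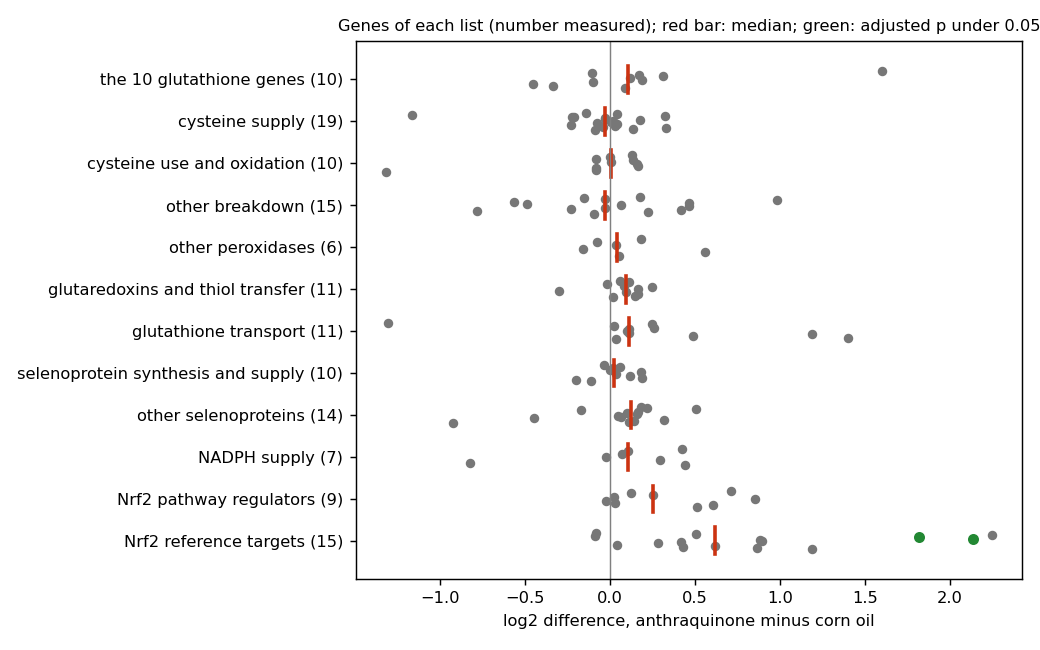
Log2 difference between anthraquinone and corn oil (horizontal axis) of each measured gene in the 12 lists, with the median in red and genes past the adjusted test in green. Medians lay between -0.03 and 0.26 except for the Nrf2 reference targets, at 0.62.

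In cysteine supply, 0 of 19 measured genes passed in either direction. Slc3a2, whose product forms the exchanger with that of Slc7a11, measured 4.43, 4.24 and 4.50 with corn oil and 4.65, 4.71 and 4.80 with anthraquinone, a difference of 0.33 ± 0.10 (SE, n = 3 per group, limma adjusted p = 0.212) with the groups apart. The betaine methyltransferase gene Bhmt had the highest value of that list, 0.33 ± 0.30. Slc7a13, an amino acid carrier that is also on the S3 list, had the lowest at -1.16 ± 0.51. Among 10 genes of cysteine use 0 passed, with values from -1.32 ± 0.51 for the cysteine dioxygenase gene Cdo1 to 0.17 ± 0.07 for Ethe1, a sulfur dioxygenase gene.

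In other breakdown steps 0 of 15 measured genes passed. Anpep, the brush border aminopeptidase that splits the cysteinyl-glycine left by Ggt1, measured 4.88, 4.86 and 4.70 with corn oil and 3.88, 4.37 and 3.84 with anthraquinone. All treated rats lay below all controls, with a difference of -0.78 ± 0.16 (SE, n = 3 per group, limma adjusted p = 0.182). Ggct, which cyclises gamma-glutamyl amino acids inside the cell, was also separated downward, at -0.49 ± 0.12 (SE, n = 3 per group, limma adjusted p = 0.195). The highest value was that of Ggt7, 0.98 ± 0.40, which was led by anthraquinone rat 3 at -2.15 against -3.32 and -3.78 in the other treated rats.

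Among 6 other peroxide-removing enzymes 0 passed. Gpx2, the epithelial glutathione peroxidase, had the highest value, 0.56 ± 0.58, with rats from 3.32 (corn oil 3) to 5.82 (anthraquinone 3), and Gpx6 the lowest, -0.16 ± 0.17. Of 11 glutaredoxin and thiol transfer genes 0 passed, from -0.30 ± 0.14 for Glrx to 0.25 ± 0.15 for Glrx5.

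Of 11 transporter genes of glutathione and its conjugates 0 passed. The efflux pump genes Abcc2 and Abcc4 were separated upward, at 1.40 ± 0.37 and 1.19 ± 0.24 (SE, n = 3 per group, limma adjusted p = 0.201 and 0.182). Slco1a1 was separated downward at -1.30 ± 0.41 (limma adjusted p = 0.220), and corn oil rat 3 and anthraquinone rat 2 were the lowest of their groups, as for Gclc.

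The peroxidases Gpx1, Gpx3 and Gpx4 are selenoproteins, so the machinery for selenocysteine and the other selenoproteins were examined. In synthesis and supply 0 of 10 measured genes passed, with values from -0.20 ± 0.15 for the uptake receptor gene Lrp2 to 0.19 ± 0.07 for the selenocysteine lyase gene Scly. In the 14 other selenoproteins 0 passed, 6 were separated upward and 1 downward, against 15.0% and 10.2% of all entries. Dio1, the deiodinase, measured 4.59, 4.47 and 4.61 with corn oil and 3.78, 3.88 and 3.24 with anthraquinone (-0.92 ± 0.17 SE, n = 3 per group, limma adjusted p = 0.165). The thioredoxin reductase gene Txnrd1 and Selenoh had 0.51 ± 0.13 and 0.32 ± 0.09 (SE, n = 3 per group, limma adjusted p = 0.199 and 0.203).

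Of 7 measured genes of NADPH supply, which Gsr depends on, 0 passed. Tkt, the transketolase gene, was separated upward at 0.42 ± 0.09 (SE, n = 3 per group, limma adjusted p = 0.185). Idh1 was separated downward at -0.82 ± 0.32 (limma adjusted p = 0.276), with corn oil rat 3 far above the rest at 6.62. Corn oil rats 1 and 2 were both at 5.49, and the treated rats at 5.14, 5.16 and 4.84.

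Regulators of the Nrf2 pathway gave 0 of 9 past the threshold and a median of 0.26. Bach1, a repressor at antioxidant response elements, was separated upward at 0.61 ± 0.09 (SE, n = 3 per group, limma adjusted p = 0.128), as was Sqstm1, an autophagy receptor that binds Keap1, at 0.71 ± 0.12 (limma adjusted p = 0.154). The small Maf gene Maff had the highest value, 0.86 ± 0.26, and Keap1 the lowest, -0.02 ± 0.07. In the 15 Nrf2 reference targets outside the glutathione genes 2 passed and 10 were separated upward, against 0.0276% and 15.0% of all entries, and the median was 0.62. Their values ran from -0.09 ± 0.21 for Osgin1 to 2.25 ± 0.37 for Srxn1, the sulfiredoxin gene. Gstp1, Akr7a3, Blvrb and Gsta3 were also separated upward, between 0.42 and 0.88. Set beside these, Slc7a11 at 1.60 lay within the range of the reference targets, while Gclc at -0.33 and Gclm at -0.45 lay below its lowest value. Gclc was -0.083 without anthraquinone rat 2 and Gclm -0.068 without corn oil rat 2, and both were positive with the S3 marker term. The range of the reference targets was not computed in those fits, so whether the order changes there was not tested.

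As a check of the tissue, all 13 listed proximal tubule markers and all 7 podocyte markers were measured, while Alb, Ttr and Serpina1 of the 8 hepatocyte markers were not well above background in all rats of either group. Cyp2e1, Fga, Fgb and Apob of the same list were above background on all 6 arrays, and Apoa1 on 4. The list's 5 measured genes all had negative differences. Macrophage markers, 8 of 9 measured, had 3 separated upward and 1 downward, against 15.0% and 10.2% of all entries. Their summed level was 102 to 117 in corn oil and 91.4 to 106 in anthraquinone. Lyz2, the brightest of them, weighs most in that sum and had a difference of -0.28. The mean log2 level of the list, set to 0 over the 6 arrays, was -0.083, -0.022 and 0.0040 with corn oil. With anthraquinone it was 0.0030, 0.20 and -0.10.

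**Figure D5:**
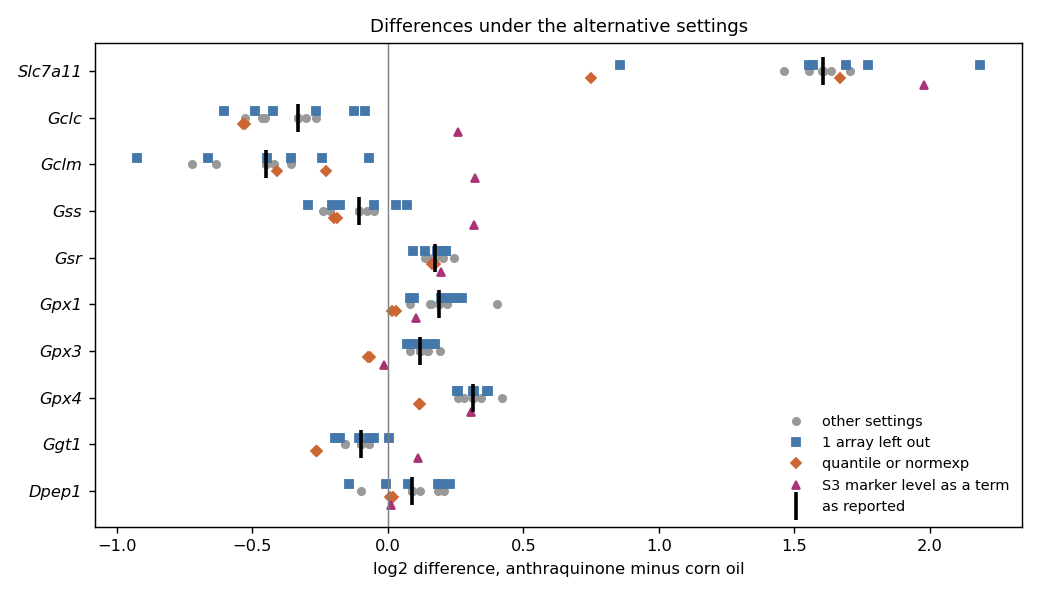
Log2 difference between anthraquinone and corn oil (horizontal axis) of each of the 10 genes as reported (black bar) and under 19 other settings. Slc7a11, Gsr, Gpx1 and Gpx4 stay above 0 under all of them, Gclc and Gclm are below 0 except with the S3 marker level as a term, and the value of Slc7a11 is lowest with the normexp correction.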

How the data were processed

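Renal cortex RNA of 6 rats was hybridised to 6 arrays (3 per group by the sample titles). The deposited scanner files hold spot intensity, background-subtracted and spatially detrended with the Feature Extraction software, version 10.7.1.1 (10.7 in the submitters' processing notes), per the file headers, and not scaled between arrays. The authors' deposited value table holds the same intensity divided by each array's 75th percentile (90.7 to 97.0% of probes within 0.01 log2 of 1 constant per array, column medians 0.109 to 0.114), and was used as an alternative. That it is linear and uncentred comes from this match, since no header states it.

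Each array's log2 intensity was lowered by its 75th percentile, taken from the 61657 probes that are not controls. Spots with outlier flags (2 to 13 per array) were left out. Probes well above background on all arrays of a group (41310) were kept. Names came from the RefSeq table of GRCr8 through the accession, for 27460 probes. Its coordinates were not used for the probes, which were designed on rn4. The brightest probe stood for a gene. The 10 genes had 16 probes, 14 of them tested. The test was limma's moderated one (lmFit, then eBayes; limma 3.58.1 under R 4.3.3). SE and intervals are limma's moderated ones. P-values measure the spread between these rats, and precision is limited by how few arrays there are. With 3 against 3 an exact permutation test of 1 gene cannot go below 0.1. On simulated data of 32649 entries, the procedure recovered 20, 46, 82 and 94% of 50 genes changed by 0.5, 1, 2 and 3 on the log2 scale, with 6 of 127 calls false. The changed genes were drawn from all entries, whose median within-group SD was 0.14. Slc7a11, Gclm and Gclc had SDs of 0.97, 0.68 and 0.47, and recovery at such a spread was not simulated separately.

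All 10 genes are named. From each other list the highest and lowest value, any gene past the threshold, and any gene with unadjusted p under 0.01 and separate groups are named. A gene that the rule names is not reported here. Slc3a2, and the genes outside the 10 whose values are given rat by rat, were chosen after their values were seen. The genes and lists were chosen with earlier results of these data known. For normexp (offset 50), spot medians stood in for spot means, which the files read here do not hold. The protein comparison that was planned was not run, since no protein sequences were used here. The correlations between genes and with the S3 markers were not among the planned tests.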

Additional observations from a re-analysis of the deposited data

How the results depend on the processing

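Of the 10 genes, 0 passed under any of the 19 settings tried (18 planned and the S3 marker term, which was added after seeing the data), so the count past the threshold did not move. The lowest adjusted p of any of them was 0.121, for Gpx4 with a trended and robust variance. Of 190 gene and setting values, 177 kept their direction and 13 reversed.

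The median of the 10 genes was -0.032 after quantile normalization, -0.024 with normexp and 0.23 with the S3 marker level as a term, and 0.04 to 0.19 with 1 array left out. Gpx3 was -0.074 after quantile normalization, -0.067 with normexp and -0.016 with the S3 term. With that term Gclc was 0.26, Gclm 0.32, Gss 0.32 and Ggt1 0.11. With the array row as a block, which leaves 1 control in the treated rats' row, Dpep1 was -0.10. With 1 array left out Gss ranged from -0.29 to 0.070, Ggt1 from -0.19 to 0.0055, Dpep1 from -0.14 to 0.23 Gclc from -0.61 to -0.083 and Gclm from -0.92 to -0.07. The cause of these moves was not tested. The other genes of the lists gave 2 past the threshold as reported, 11 without the filter on dim probes (where 6611 of all 49481 entries passed, a larger share than in these lists), and 0 to 1 with 1 array left out.

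The slide as a block equals leaving out corn oil rat 1, which was alone on its slide. On the other slide the controls lay in row 1 and the treated rats in row 2. Row and treatment therefore cannot be told apart on that slide. Replicate numbers did not pair the rats (correlations of same-numbered deviations 0.03, -0.06 and -0.0074), and with a replicate block 0 of the 10 genes and 1 of all entries passed, against 9 without the block. The motif count was 1 for both forms of the response element. Slc7a11 was dim, and 2 of its 3 probes were below background in all controls, which limits the precision of its fold.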
